A study of Mus musculus with 6 samples.

Results

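*Ly6a*, *Ly6c1*, *Ly6c2*, *Ly6e* and *Ly6i* of the Ly6 family, together with *Plac8*, *Spn*, *Cd34* and *Vcan*, were examined in bone marrow-derived macrophages (BMDMs) of wild-type mice and of mice with a myeloid deletion of *Scd2*, a stearoyl-CoA desaturase that makes monounsaturated fatty acids. These 9 genes, of the 40481 in the count table, were taken by symbol. They were picked because *Ly6a* and *Plac8* were higher and *Vcan* was lower in the mutant cells. Their differences between the genotypes are therefore described here with no p-value, and nothing is read from how many passed a threshold. RNA of unstimulated BMDMs was sequenced in 3 samples of wild-type and 3 of *Scd2*-m/-m cells (called mutant here), with 1 poly(A)-selected library each. *Scd2*-m/-m cells came from mice with floxed *Scd2* alleles and a lysozyme M-Cre transgene, which acts in cells of the monocyte, macrophage and granulocyte lineages. Mice of the study were male and female and 2 to 5 months old. Marrow cells of both genotypes were grown for 5 to 6 days in medium conditioned by CMG cells, a source of macrophage colony-stimulating factor, and then held in medium with less of it. The sources used here do not give the strain, whether wild-type mice carried the floxed alleles or the Cre, or whether libraries came from separate mice, so p-values for other genes given here measure only the spread between these libraries.

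Ly6 proteins are small, disulfide-rich molecules held at the cell surface by a lipid (GPI) anchor, and in the mouse many of their genes lie side by side on chromosome 15. *Ly6c2* encodes the Ly6C antigen that separates classical from patrolling blood monocytes, and *Ly6a* encodes Sca-1, which marks hematopoietic stem cells and is inducible by interferon. CD34 and CD43 (the product of *Spn*) are sialomucins of progenitors and leukocytes, *Plac8* encodes a small cysteine-rich protein abundant in myeloid progenitors and inflammatory monocytes, and *Vcan* encodes versican, a matrix proteoglycan made by classical monocytes.

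The 4 Ly6 genes other than *Ly6e* are close copies, which matters for reading their counts. Their first 60 coding bases are shown to make that visible, from the GENCODE transcripts of the GRCm38 build, 5′ to 3′ from the start codon, with capitals where a base differs from *Ly6c2* at the same position.
Ly6c2: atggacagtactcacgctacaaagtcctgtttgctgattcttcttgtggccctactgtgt
Ly6c1: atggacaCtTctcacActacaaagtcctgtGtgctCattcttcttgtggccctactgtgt
Ly6a: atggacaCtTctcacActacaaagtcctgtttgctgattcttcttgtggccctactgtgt
Ly6i: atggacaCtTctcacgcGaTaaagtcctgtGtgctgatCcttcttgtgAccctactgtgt
Ly6e: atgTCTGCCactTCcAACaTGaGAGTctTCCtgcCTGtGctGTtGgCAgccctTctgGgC
In this stretch *Ly6a* differed from *Ly6c2* at 3 positions, *Ly6c1* at 5, *Ly6i* at 7 and *Ly6e* at 32. Over the whole coding sequence *Ly6c1* and *Ly6c2* were 97.7% identical, *Ly6a* and *Ly6i* 86.3%, and *Ly6e* was between 44.7% and 49.3% identical to the other 4. A stretch of 50 bases was also found in a transcript of another gene at 36.7% of the positions of the *Ly6c1* transcript, 33.0% of *Ly6c2*, 8.05% of *Ly6a*, 4.97% of *Ly6i* and 4.24% of *Cd34*, where the other gene was *Gm16897*. No such stretch was found in the transcripts of *Ly6e*, *Plac8*, *Spn* and *Vcan*. At 100 bases, sharing was found in *Ly6c1* (15.3%), *Ly6c2* (15.8%) and *Cd34* (2.21%) and in none of the other 6. The sources used here do not say how reads that match several genes were counted, so the split between *Ly6c1* and *Ly6c2* is uncertain.

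The upstream sequences of that pair have diverged more than their coding sequences. The 250 bases before the first-listed start of *Ly6c1* (chr15:75048838-75049087) and of *Ly6c2* (chr15:75111972-75112221) are printed on the minus strand of the genes, from the RefSeq table of GRCm38.p6, with capitals for a match to GAGGAAGT, the site of PU.1, an ETS factor of myeloid cells.
Ly6c1: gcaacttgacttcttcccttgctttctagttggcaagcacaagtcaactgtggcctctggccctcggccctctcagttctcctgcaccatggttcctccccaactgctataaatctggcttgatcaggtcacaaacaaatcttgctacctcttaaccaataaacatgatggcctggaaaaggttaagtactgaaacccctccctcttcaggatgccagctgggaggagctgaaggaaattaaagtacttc
Ly6c2: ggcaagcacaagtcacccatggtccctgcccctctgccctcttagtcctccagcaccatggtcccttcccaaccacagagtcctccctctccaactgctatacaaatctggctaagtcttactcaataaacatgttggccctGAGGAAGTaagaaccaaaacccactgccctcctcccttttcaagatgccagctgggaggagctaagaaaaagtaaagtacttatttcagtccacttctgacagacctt
Aligned end to end, they were identical at 75.9% of the 216 positions where both had a base, and at 57.7% of all 284 columns with gaps counted. *Ly6c2* had 1 match, which began 108 bases before its start, and this *Ly6c1* window had none. Another annotated start of *Ly6c1* had a match 127 bases upstream. From another start of *Ly6c2* the same match lay 142 bases upstream, with 1 more at 8 bases. The matches at 127 and 8 bases lay outside the printed windows, so the number found for either gene depended on the start used. GAGGAAGT was present on either strand in 2.44% of 32851 promoters of this length. The interferon-stimulated response element (GAAA NN GAAA, in 2.98% of promoters), the STAT site (TTCNNNGAA, 7.02%) and the C/EBP site (TTGCNNCAA, 1.74%) were not found in any window of the 6 genes the table held, nor was GAGGAAGT in those of *Cd34*, *Plac8*, *Spn* and *Vcan*. *Ly6a*, *Ly6e* and *Ly6i* were not in that table.

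The libraries held 46285176 to 57629638 counts on genes, with scaling factors of the trimmed mean of M values (TMM) method of 0.979 to 1.02. Values of single libraries are given in the order of replicates 1, 2 and 3 of each genotype. *Scd2* itself was at 66.9, 77.8 and 62.7 CPM (counts normalised to the TMM-scaled library size) in wild type and at 59.5, 38.0 and 39.8 CPM in the mutant (log2 fold change −0.59, SE 0.19, FDR = 0.100 by edgeR's quasi-likelihood test, adjusted by Benjamini-Hochberg). It passed an FDR of 0.05 in 3 of 15 other fits, among them that without *Scd2*-m/-m replicate 1. The gene counts cover all exons of *Scd2* and do not separate the floxed part. By qPCR, the paper reports a larger drop of *Scd2* transcript in *Scd2*-m/-m macrophages. All 6 macrophage markers were present in every library, with a summed level of 14070 to 14316 CPM in wild type and 11662 to 12074 CPM in *Scd2*-m/-m BMDMs, where 3 were called lower and 1, *Cd68*, higher. The call of *Cd68* was lost in 5 of the 6 fits that leave out a library, all but that without wild-type replicate 1. *Xist* was at 658 to 842 CPM and *Ddx3y*, *Eif2s3y* and *Kdm5d* were at 0 counts in all 6 libraries, the pattern of female cells. Among the Y-linked genes only *Uty* had any counts, at 0.121 CPM in wild-type replicate 1 and 0.0984 CPM in wild-type replicate 3.

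*Ly6a* was the Ly6 gene with the largest increase. It lies on the minus strand of chromosome 15 from 74994877 to 74998031 (GRCm38, ENSMUSG00000075602). Its level was 10.6, 5.27 and 7.30 CPM in wild type and 44.1, 41.2 and 46.01 CPM in the mutant. The groups were far apart and the mutant libraries were close to each other. The mean was 7.73 ± 2.70 CPM (SD, n = 3) in wild-type and 43.8 ± 2.42 CPM (SD, n = 3) in *Scd2*-m/-m BMDMs, 5.66-fold higher, with a log2 fold change of 2.5 ± 0.24 (SE, edgeR).

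*Ly6i*, the nearest of the others to *Ly6a* and the most like it in coding sequence, went the other way (minus strand, 74979534 to 74983430). It was at 5.14, 2.86 and 2.48 CPM in wild type and at 0.95, 1.09 and 0.791 CPM in the mutant. All mutant libraries were below all wild-type libraries, and wild-type replicate 1 stood above the other two. The *Scd2*-m/-m mean was 27.1% of the wild-type mean, 0.945 ± 0.151 against 3.49 ± 1.44 CPM (SD, n = 3 each), and the log2 fold change was −1.89 ± 0.27 (SE, edgeR). Per length of exon, *Ly6a* was 1.98, 1.77 and 2.82 times the level of *Ly6i* in the wild-type libraries and 44.6, 36.1 and 55.8 times in the *Scd2*-m/-m libraries. The step between the genotypes in this ratio was thus much wider than the spread within either one.

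*Ly6c2*, the gene of the monocyte antigen, was moderately higher (minus strand, 75108158 to 75111970). Its libraries were at 3.57, 3.01 and 2.14 CPM in wild type and at 4.77, 5.85 and 4.78 CPM in the mutant, without overlap. The mean was 2.91 ± 0.717 and 5.13 ± 0.620 CPM (SD, n = 3 each), and the log2 fold change was 0.82 ± 0.18 (SE, edgeR). Its copy *Ly6c1* (minus strand, 75044018 to 75048830), known for expression in endothelial cells, was close to absent, with 7, 3 and 3 counts in wild type and 14, 10 and 13 counts in the mutant. That is a mean of 0.0884 ± 0.0457 CPM (SD, n = 3) against 0.224 ± 0.026 CPM (SD, n = 3), with the libraries apart but on 13 and 37 counts in all. The ratio of the scaled sums was 2.54, with an exact 95% counting interval of 1.32 to 5.21, which covers counting error only and is too narrow if a read pair gave 2 counts. The log2 fold change was 1.32 ± 0.56 (SE, edgeR). *Ly6c1* passed the filter on low counts through its *Scd2*-m/-m libraries, and its counts and those of *Ly6c2* cannot be fully told apart.

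*Ly6e*, the most abundant of the 9 genes, differed least among those called (plus strand, 74955051 to 74959905). It is known as an interferon-inducible gene that restricts entry of some viruses. It was at 990, 816 and 1030.5 CPM in wild type and at 1287, 1153 and 1255 CPM in the mutant. The groups did not overlap, but wild-type replicate 3 and *Scd2*-m/-m replicate 2 were not far apart. The mean was 946 ± 114 CPM (SD, n = 3) and 1232 ± 70.0 CPM (SD, n = 3), with a log2 fold change of 0.38 ± 0.09 (SE, edgeR). Per length of exon, *Ly6e* was 29.7, 49.3 and 45.0 times the level of *Ly6a* in the wild-type libraries and 9.29, 8.91 and 8.69 times in the *Scd2*-m/-m libraries.

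**Figure D1:**
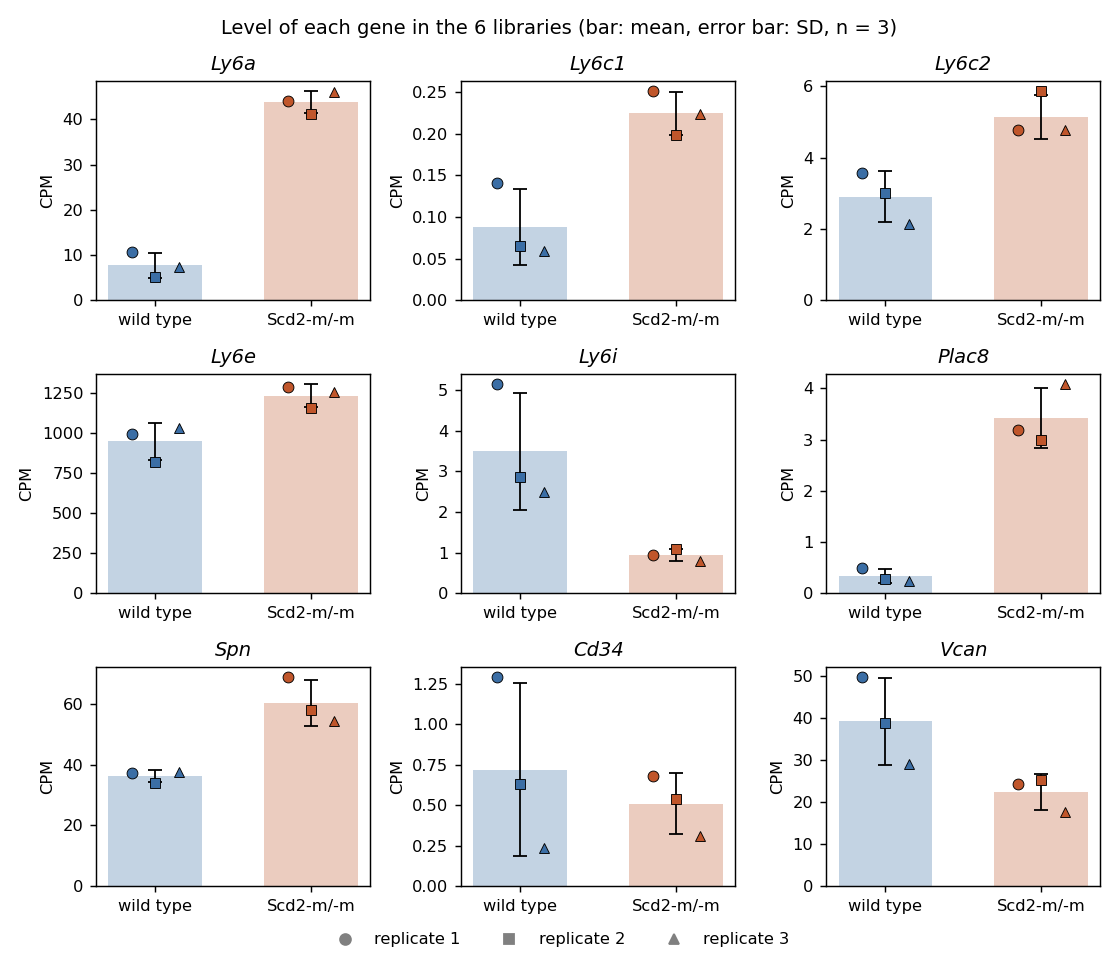
Level of each of the 9 genes in CPM (y axis, from 0, a scale of its own in each panel) in the 3 wild-type (blue) and 3 *Scd2*-m/-m (orange) libraries, with a symbol for each replicate, a bar for the mean and an error bar for the SD. The libraries of the genotypes overlap in *Cd34* alone, and wild-type replicate 1 is the highest wild-type library in 7 of the 9 panels.

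Among the genes outside the family, *Plac8* showed the widest gap between the genotypes. The gene lies on the minus strand of chromosome 5 from 100553725 to 100572245. Wild-type libraries had 0.484, 0.282 and 0.236 CPM, on 24, 13 and 12 counts, and mutant libraries 3.19, 2.98 and 4.08 CPM, on 178, 150 and 237 counts. The lowest mutant library was thus well above the highest wild-type library, while the level remained low in both genotypes. The mean was 0.334 ± 0.132 CPM and 3.42 ± 0.581 CPM (SD, n = 3 each), which is 10.2-fold higher, with a log2 fold change of 3.35 ± 0.27 (SE, edgeR).

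The sialomucins differed from each other. *Spn* (chromosome 7, minus strand, 127132232 to 127137823) had 37.3, 33.9 and 37.8 CPM in wild type and 69.0, 58.3 and 54.4 CPM in the mutant. Its groups were apart, at 36.3 ± 2.11 and 60.5 ± 7.56 CPM (SD, n = 3 each), and the log2 fold change was 0.74 ± 0.09 (SE, edgeR). *Cd34* (chromosome 1, plus strand, 194938819 to 194961279) had 1.29, 0.629 and 0.236 CPM in wild type and 0.681, 0.537 and 0.310 CPM in the mutant. Here the groups overlapped and wild-type replicate 1 alone lay above all mutant libraries. The log2 fold change of *Cd34* was −0.50 ± 0.52 (SE, edgeR), and it was 0.24 without wild-type replicate 1, so the data give it no direction.

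*Vcan* (chromosome 13, minus strand, 89655312 to 89742509) was at 49.7, 38.7 and 29.1 CPM in wild type and at 24.2, 25.3 and 17.5 CPM in the mutant. Every mutant library was below every wild-type library, but wild-type replicate 3 was much nearer to the mutant libraries than replicate 1 was. The mean was 39.2 ± 10.3 CPM (SD, n = 3) against 22.3 ± 4.22 CPM (SD, n = 3), 57.0% of wild type, with a log2 fold change of −0.81 ± 0.25 (SE, edgeR).

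All 9 genes passed edgeR's filter on low counts, although 3 of them (*Ly6c1*, *Plac8* and *Cd34*) had a wild-type mean below 1 CPM. At an FDR below 0.05, 5 were called higher (*Ly6a*, *Ly6c2*, *Ly6e*, *Plac8* and *Spn*), beside 9.65% of the 14778 tested genes, and *Ly6i* was called lower, beside 7.84%. With an absolute log2 fold change above 2 in addition, *Ly6a* and *Plac8* remained, beside 0.663% of tested genes. The libraries of the genotypes did not overlap in 6 genes in the higher direction, beside 17.9% of tested genes, and in 2 in the lower direction, *Ly6i* and *Vcan*, beside 17% of tested genes. As the genes were chosen on this contrast, nothing is read from these counts. The median log2 fold change was 0.74 over the 9 genes and 0.0039 over all tested genes.

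**Figure D2:**
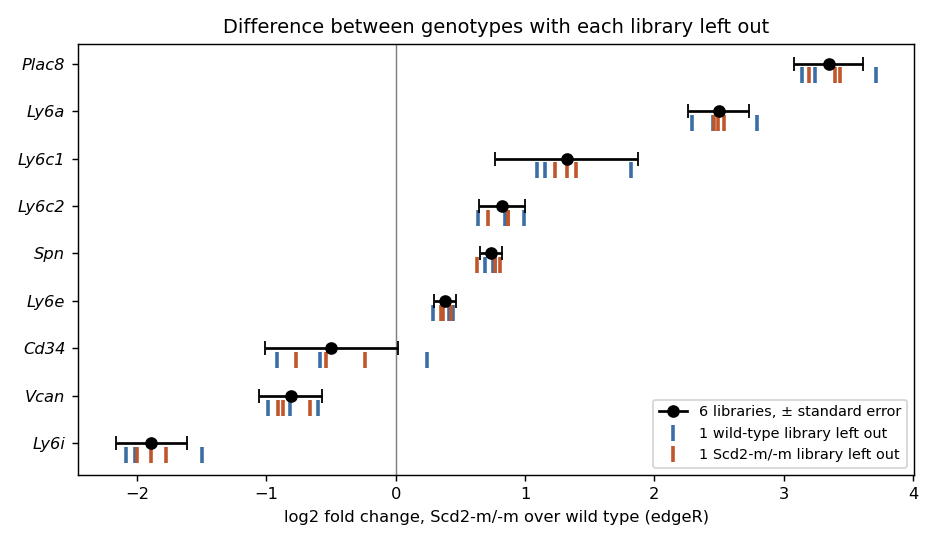
Log2 fold change of *Scd2*-m/-m over wild type from edgeR (x axis) for each of the 9 genes (rows, in order of the value), as a black point with its standard error. Ticks under each point give the value with 1 wild-type (blue) or 1 *Scd2*-m/-m (orange) library left out, and for *Cd34* alone a tick, that without wild-type replicate 1 at 0.24, lies on the other side of 0.

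Wild-type replicate 1 was the highest wild-type library for 7 of the 9 genes, all but *Ly6e* and *Spn*, where it was so for 36.8% of all tested genes. Apart from that, the size of the spread within the wild type differed among the 9 genes. The coefficient of variation over the wild-type libraries ran from 5.82% for *Spn* and 12.03% for *Ly6e* to 34.9% for *Ly6a*, 39.4% for *Plac8*, 41.1% for *Ly6i* and 74.1% for *Cd34*. In the *Scd2*-m/-m libraries it was 5.53% for *Ly6a*, 17.0% for *Plac8*, 16.02% for *Ly6i* and 36.8% for *Cd34*. For *Spn* the order was the reverse, at 12.5%.

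Levels can be compared between genes only per length, here as CPM per kb of annotated exon. In wild-type BMDMs *Ly6e* came first at 250 ± 30.1 CPM per kb (SD, n = 3), followed by *Spn* at 7.76, *Ly6a* at 6.41, *Ly6i* at 3.02, *Vcan* at 2.71 and *Ly6c2* at 1.06 CPM per kb. *Plac8* at 0.210, *Cd34* at 0.0985 and *Ly6c1* at 0.0527 CPM per kb were at the bottom. Neighbours whose libraries overlapped, so that their order is not set, were *Spn* and *Ly6a*, *Ly6a* and *Ly6i*, *Ly6i* and *Vcan*, *Plac8* and *Cd34*, and *Cd34* and *Ly6c1*. In *Scd2*-m/-m BMDMs the order was *Ly6e* at 326 ± 18.5 CPM per kb (SD, n = 3), *Ly6a* at 36.3, *Spn* at 12.9, *Plac8* at 2.15, *Ly6c2* at 1.87, *Vcan* at 1.54, *Ly6i* at 0.818, *Ly6c1* at 0.134 and *Cd34* at 0.0699. There *Ly6a* was clear of *Spn*, while *Plac8* overlapped *Ly6c2*, and *Ly6c2* overlapped *Vcan*.

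**Figure D3:**
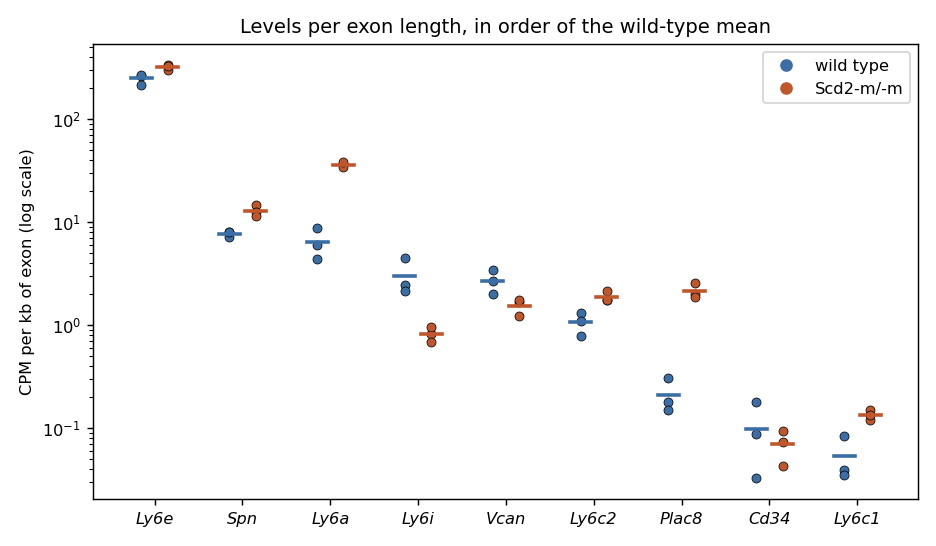
Level of the 9 genes in CPM per kb of exon (y axis, log scale) in the 3 wild-type (blue) and 3 *Scd2*-m/-m (orange) libraries, with a line for the mean, in order of the wild-type mean. *Ly6e* lies above 200 in every library, and *Ly6a* stands near 36 in the *Scd2*-m/-m libraries against 4.37 to 8.81 in the wild-type libraries.

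The 5 Ly6 genes span 157 kb of chromosome 15. Within 500 kb of them the annotation places 46 other genes in the count table, 20 of which had no count in any library and 6 of which were tested. Of these, *Ly6d* and *I830127L07Rik* were called higher and *Them6* lower (edgeR, FDR below 0.05), and the median log2 fold change was −0.22. *Ly6d*, a marker of early lymphoid progenitors and epithelia, had 4, 7 and 4 counts in wild type and 22, 18 and 28 in the mutant, a log2 fold change of 1.98 (SE 0.47, edgeR). *I830127L07Rik*, annotated as a transcribed pseudogene, had 4, 4 and 9 counts against 14, 20 and 45 (log2 fold change 2.02, SE 0.55, edgeR), and it shares 50-base stretches with *Ly6a*, *Ly6c2* and *Ly6i*. Both passed the filter on low counts through their mutant libraries alone, since no wild-type library reached its level of 0.196 CPM, so these calls are no support for a change in the region. *Ly6d* was called in 12 of 15 other fits and was not tested or had no adjusted p in the rest. *I830127L07Rik* was not called without wild-type replicate 1 or 2 or without *Scd2*-m/-m replicate 2 or 3.

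The other 4 tested genes of the region lie on the side of *Ly6e* and none was called higher. *Them6* was at 5.12, 5.03 and 5.19 CPM in wild type and 4.41, 3.14 and 3.46 CPM in the mutant (log2 fold change −0.48, SE 0.14, FDR = 0.0354, edgeR), a call lost in 5 of the 6 fits that leave out a library. *Arc*, an immediate-early gene of neurons, *Jrk* and *Lynx1*, a modulator of nicotinic receptors, had log2 fold changes of −0.49, −0.36 and −0.08 and were not called (FDR of 0.267, 0.303 and 0.917, edgeR). *Ly6g*, the antigen of neutrophils, lies just beyond *I830127L07Rik* and had 0, 0 and 0 counts in wild type and 2, 0 and 2 counts in the mutant. The direction thus differed between genes of the region, with *Ly6i* lower between *Ly6e* and *Ly6a*, which were higher. The Ly6 genes were among those chosen on this contrast, and a cause common to the region was not tested.

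**Figure D4:**
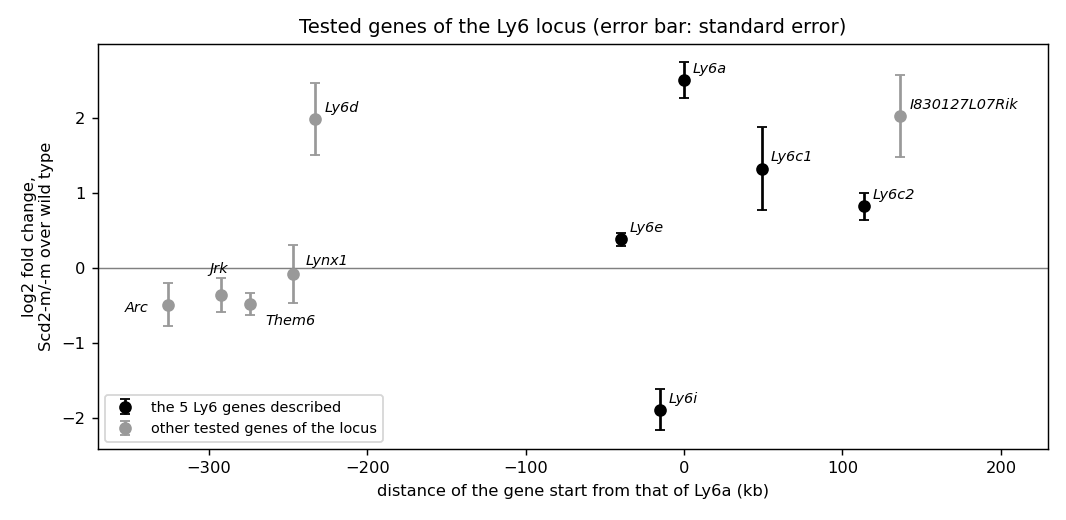
Log2 fold change of *Scd2*-m/-m over wild type with its standard error (y axis, edgeR) against the distance of each tested gene's lower coordinate from that of *Ly6a* in kb (x axis), for the 5 Ly6 genes (black) and the 6 other tested genes of the region (grey). *Ly6i*, at −1.89, lies between *Ly6e* and *Ly6a*, which are above 0.

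Of 34 other Ly6/uPAR family genes in the table, 7 were tested, and 1 of them, *Ly6d*, was called higher, again through its mutant libraries, and the median log2 fold change was 0.26. *Cd59a* and *Cd59b*, inhibitors of the complement attack complex, had log2 fold changes of 0.26 ± 0.10 and 1.02 ± 0.36 (SE) and FDRs of 0.0755 and 0.0695 (edgeR). *Plaur*, the urokinase receptor, was at −0.33 ± 0.12 (SE, FDR = 0.0887, edgeR), with overlapping libraries. *Ly6g6d* at 0.77, *Ly6g5b* at −0.32 and *Lynx1* were below 1 CPM and were not called either.

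Genes of the cell states that the 9 genes mark were read against the 9.65% of tested genes called higher and 7.84% called lower. Among 22 classical monocyte genes, 10 were higher and 2 lower, and the median log2 fold change was 0.22. The 4 with the smallest p were *Thbs1*, thrombospondin 1, which fell from 426 ± 24.9 to 148 ± 11.1 CPM (SD, n = 3 each; log2 fold change −1.53, FDR = 1.15e-08, edgeR), and *Chil3*, *Ifitm6* and *Gda*, which rose by 1.79, 0.68 and 0.62 on the log2 scale. Without wild-type replicate 3 the number called lower was 4. The log2 fold change was above 0 in 12 of the 22 genes. Among 16 non-classical monocyte genes, 2 were higher and 6 lower, with a median of −0.38, and 1 was called higher without wild-type replicate 2 or *Scd2*-m/-m replicate 1. *Itgal*, an integrin of patrolling monocytes, fell by 1.53 and *Cd300e* fell by 1.14 on the log2 scale, *Pou2f2* fell by 0.40, and *Klf2* rose by 0.58.

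Of 24 other progenitor surface genes 15 were tested, of which 6 were higher and 2 lower, and the median log2 fold change was 0.84. *Flt3*, among the 6, passed the filter on low counts through its mutant libraries alone. The 2 lower calls were lost without replicate 2 of either genotype. *Cd24a* rose from 1.64 ± 0.257 to 6.34 ± 0.725 CPM (SD, n = 3 each; log2 fold change 1.95, FDR = 2.32e-06, edgeR). *Cd33*, an inhibitory receptor of myeloid cells, rose by 0.92, *Il7r*, the receptor of interleukin 7, by 0.84 and *Procr*, a marker of blood stem cells, by 1.04 on the log2 scale. *Cd34*, their best-known companion, had no direction here. Among 28 tested genes of mature macrophages, 8 were higher and 11 lower, with a median of 0.0041. *Cd5l*, a scavenger receptor relative secreted by macrophages, rose by 2.24, *Axl*, a receptor for dying cells, by 0.89 and *Folr2*, a folate receptor, by 0.84 on the log2 scale, and *Apoe*, apolipoprotein E, fell by 1.51. Of 39 interferon-inducible genes, relevant to *Ly6a* and *Ly6e*, 13 were called higher and 26 were not called, with a median of 0.26. The log2 fold change was above 0 in 37 of the 39 genes, and the lowest was −0.07. Without wild-type replicate 3, 24 were called higher. *Ifi44* rose by 0.90, *Oasl1* by 0.62, *Ifi27l2a* by 0.58 and *Zbp1* by 0.55 on the log2 scale. Their differences were closer to that of *Ly6e* (0.38) than to that of *Ly6a* (2.5).

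**Figure D5:**
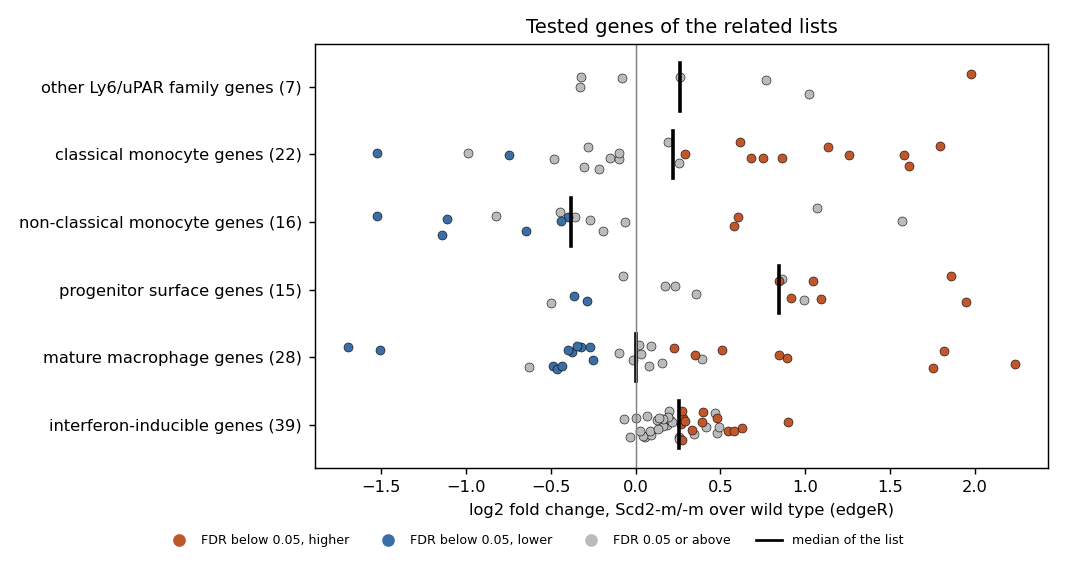
Log2 fold change of *Scd2*-m/-m over wild type (x axis, edgeR) for the tested genes of 6 related lists (rows, number tested in parentheses), in orange or blue where the FDR was below 0.05 and grey otherwise, with a black line for each median; vertical scatter within a row has no meaning. The medians run from −0.38 for non-classical monocyte genes to 0.84 for progenitor surface genes.

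Transcripts of other cells and of dividing cells also differed between the genotypes, read here too against the 9.65% of tested genes called higher and 7.84% called lower. The summed level of 8 genes of dividing cells was 40.4 to 49.1 CPM in wild type and 132 to 139 CPM in *Scd2*-m/-m libraries, and all 8 were called higher. That of 11 neutrophil genes was 22.5 to 26.2 CPM and 33.9 to 44.0 CPM, with 5 of 8 tested genes called higher. Among them were *Ngp* (log2 fold change 1.74) and *S100a9* (1.65), while *Ly6g* had at most 2 counts in any library. *Mmp8*, with the highest wild-type CPM of the 11, went from 12.5 to 10.1 CPM (log2 fold change −0.31) and was not called. Without the filter on low counts, 1 neutrophil gene was called lower. Conventional dendritic cell genes summed to 1.03 to 1.75 CPM and 1.95 to 2.70 CPM, with 2 of 5 tested called higher, *Ccr7* and *Flt3*, which passed the filter through their mutant libraries alone. *Flt3* was not called without wild-type replicate 2 or *Scd2*-m/-m replicate 2. In bulk RNA, a change in the share of such cells and a change in RNA per cell cannot be told apart, and their part in the values of *Ly6a*, *Ly6c2*, *Plac8* and *Spn* was not tested. The endothelial genes, of interest for *Ly6c1* and *Cd34*, summed to 10.1 to 10.7 CPM and 10.05 to 10.96 CPM, which overlap. Of the 4 tested, 1 was called, *Pecam1*, which fell by 1.32 on the log2 scale although the sum did not fall. The T and NK cell genes *Trbc1* and *Ncr1* were at 0 counts in all libraries. The summed levels of the T and NK cell, plasmacytoid dendritic cell, stromal and B cell genes overlapped between the genotypes. Most of the B cell sum was *Ighm*, with means of 86.5 CPM in wild type and 88.4 CPM in the mutant. Most of the T and NK cell sum was *Cd4*, with means of 35.8 and 35.7 CPM. The B cell sum and the T and NK cell sum thus say little about the other genes of their lists. Of 4 tested B cell genes, 2 were called higher, *Cd79b* and *Cd79a*. *Cd79b* rose by 1.01 on the log2 scale (FDR = 0.0026, edgeR) and was called in all 15 other fits. *Cd79a* was not called without any 1 of the wild-type replicates, or without *Scd2*-m/-m replicate 1 or 3. The erythroid genes were at 0.28 to 0.50 CPM and 0.53 to 0.72 CPM, those of mast cells and basophils at 0.30 to 0.71 CPM and 0.73 to 1.29 CPM, and those of megakaryocytes, led by *Pf4*, at 52.7 to 62.0 CPM and 42.1 to 43.5 CPM.

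The tested genes whose log2 CPM was most like that of the 3 genes that set the choice were found by Pearson's correlation over the 6 libraries, as a description, since the libraries share the genotype step. For *Ly6a* these were *Sh2d1b2*, a signalling adaptor of lymphocytes and myeloid cells (r = 0.999), *Gk*, glycerol kinase (0.998), and *Hmgn2*, a nucleosome-binding protein (0.995). For *Plac8* they were *Ctse*, the protease cathepsin E (0.998), *Nox1*, an NADPH oxidase (0.998), and *Srgn*, the proteoglycan serglycin (0.998). *Srgn* was at 63.2, 55.0 and 52.1 CPM in wild type and 95.4, 99.0 and 104 CPM in the mutant, so that it followed the shape of *Plac8* with a much smaller step. For *Vcan* they were *Polr1a*, a subunit of RNA polymerase I (0.998), *Prpf31*, a splicing factor (0.998), and *Wdr74*, a factor of ribosome assembly (0.995), all of which were highest in wild-type replicate 1, as *Vcan* was.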

How the data were processed

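BMDMs of 3 *Scd2*-m/-m and 3 wild-type samples were compared, grouped by the genotype in their labels. Reads had been aligned with STAR to the primary assembly of GRCm38 from Ensembl. The authors deposited raw counts for each gene. The sources used here do not give the counting tool, the use of strand, the treatment of reads that match several genes, or what 1 count stands for. Every library held more counts than the average number of reads per sample that the paper states, so counts may not be independent reads. The authors' own comparison (fold changes, p-values, log2 CPM) was not used. Of 40757 entries 276 repeated a gene, which left 40481 genes. Totals were 46285176 to 57629638 counts, so that 3 counts, the limit that a count of 0 allows, equal 0.0516 to 0.065 CPM (counting error only). Below 1 CPM, a level rests on few counts.

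edgeR 4.0.16 in R 4.3.3 was run with filterByExpr, TMM factors, robust quasi-likelihood fits and Benjamini-Hochberg adjustment over 14778 genes. The standard error is the log2 fold change over the square root of F. Exon length is the union of exons in GENCODE M21, so a gene with retained introns in the annotation gets a lower value per kb. Coding identity came from global alignment of the first-numbered coding transcripts. The test was checked on simulated counts. Alternatives were RLE and upper-quartile factors, DESeq2 1.42.0, limma-voom (limma 3.58.1) with and without quality weights, other filters, halved counts, a replicate block, and leaving out each library.

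The 9 genes and the related lists were chosen with earlier results of these data known. Named genes are the 9, *Scd2*, the tested genes of the family and the region, up to 4 called genes of smallest p in each other list, the 3 most correlated genes of *Ly6a*, *Plac8* and *Vcan*, sex genes and cell markers. *Gm16897* is outside that rule. A result on 1 withheld gene is not reported here.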

Additional observations from a re-analysis of the deposited data

How the results depend on the processing

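The direction of the log2 fold change was the same in all fits run for each of the 9 genes except *Cd34*, which went from −0.50 to 0.24 without wild-type replicate 1 and to between −0.92 and 0.24 over the 6 fits with 1 library left out. *Ly6c1* ranged from 1.09 to 1.82 over those fits, had no adjusted p in DESeq2, and was not tested with at least 10 counts in every library or with halved counts. The ranges over those 6 fits were 2.29 to 2.79 for *Ly6a*, 3.14 to 3.72 for *Plac8*, −2.09 to −1.50 for *Ly6i* and −0.99 to −0.60 for *Vcan*. Genes below 1 CPM are limited by depth.

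Among the 9 genes, 1 was called lower in the fit reported and 2 (*Ly6i* and *Vcan*) in DESeq2, in limma-voom with and without quality weights, with the replicate block and without wild-type replicate 3. The cause was not tested. Calls over all genes, in either direction, were 2585 in the fit reported, 2569 in DESeq2 and 2512 in limma-voom. They were 4507 with quality weights, 2974 with the block and 2288 without wild-type replicate 3. As the 9 genes were chosen on this contrast, nothing is read from their counts. Of the locus genes, 2 were called higher in the fit reported, 1 in DESeq2, and 0 with at least 10 counts in every library or halved counts, where *Ly6d* and *I830127L07Rik* did not pass the filter. Of the other Ly6/uPAR genes, the 1 called higher became 0 in DESeq2 and with halved counts and 3 in limma-voom with quality weights, and 1 was called lower in limma-voom with quality weights, without a filter, and with the block. Of the classical monocyte genes, the 2 called lower became 5 in DESeq2, 4 in limma-voom, 5 in limma-voom with quality weights, 6 without a filter and 6 with the block. Of the interferon-inducible genes, the 13 called higher became 24 in limma-voom with quality weights, 20 without a filter and 22 with the block. Over all tested genes, 2585 were called, and 4507 in limma-voom with quality weights. The sources used here do not say whether same-numbered libraries of the genotypes were prepared together. Their deviations from the group means, over all tested genes, correlated at 0.0530, −0.0196 and 0.0398, which does not settle it. With the block, the SE of *Vcan* was 0.08, beside 0.25 in the fit reported (edgeR). The other counts were the same or within 1.5 times.

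With 1 library left out, the counts called ranged from 1 to 2 (locus higher), 0 to 1 (locus lower), 1 to 2 (Ly6/uPAR higher), 0 to 1 (Ly6/uPAR lower), 2 to 4 (classical monocyte lower), 1 to 3 (non-classical higher), 0 to 3 (progenitor lower), 9 to 24 (interferon-inducible higher) and 1440 to 2567 (all genes). Without wild-type replicate 3, 24 interferon-inducible genes were called higher, and 4 classical monocyte genes lower. Without wild-type replicate 2, 1490 genes were called in all, and without *Scd2*-m/-m replicate 2, 1440. The lower count of locus genes called higher came without wild-type replicate 1 or 2 or *Scd2*-m/-m replicate 2 or 3, where *I830127L07Rik* was lost. That of progenitor genes called lower (0) came without wild-type or *Scd2*-m/-m replicate 2, and that of non-classical genes called higher (1) without wild-type replicate 2 or *Scd2*-m/-m replicate 1. *Them6* was the locus gene called lower, and it was lost without wild-type replicate 1, 2 or 3 and without *Scd2*-m/-m replicate 2 or 3.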
